A study of Mus musculus with 6 samples.

Results

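Lysosomal hydrolases and membrane proteins were followed in B16-F10, a melanoma cell line derived from a C57BL/6 mouse and grown in culture. The 35 genes were chosen by name, from textbook membership of the lysosome, though with earlier results of these data known. All 35 were found among the 39179 genes of the count files. They comprise 9 proteases, 9 glycosidases, 3 sulfatases, 8 lipid-handling proteins, 5 membrane proteins and the granulin precursor Grn. Poly(A)-selected RNA was sequenced from cells labelled Sirpa-wild type (Sirpa-WT, 3 libraries) or Sirpa-knockout (Sirpa-KO, 3 libraries). The targeted gene, Sirpa, encodes the CD47 receptor SIRPα, and the comparison asks which genes differ in RNA level between the genotypes. The labels give no treatment, no description of the edit, and no statement of clone number or separate cultures. p-values therefore measure only the spread between these libraries, which may be technical. One label field gives the cell line as Pmel and the tissue as tumor, while the series text describes cells in culture.

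Lysosomes are acidic organelles in which hydrolases break down proteins, glycans, sulfated sugars and lipids delivered by endocytosis and autophagy. Most soluble hydrolases reach them through mannose 6-phosphate tags, and the limiting membrane carries glycoproteins, transporters and ion channels. Transcription factors of the MiT/TFE family, such as TFEB and TFE3, bind an element called CLEAR in the promoters of many lysosomal genes. MITF, the lineage factor of melanocytes, belongs to the same family, and melanosomes, the pigment organelles of these cells, are related to lysosomes.

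One library stood apart. Total counts were 338824 to 411695 in 5 shallow libraries and 29877270 in Sirpa-KO replicate 1, called the deep library below. Levels are given in CPM, the count of a gene per 1000000 counts of its library, and a single count is worth 2.43 to 2.95 CPM at the shallow depth. Processed pseudogenes took 26.5% to 29.7% of counts in the shallow libraries and 0.177% in the deep one. Sirpa itself was counted 12, 7 and 3 times in the Sirpa-WT libraries and 1584, 6 and 6 times in Sirpa-KO replicates 1 to 3. Its log2 fold change in edgeR's unfiltered fit was 0.17 ± 0.62 (SE, adjusted p = 0.938), and -0.38 ± 0.53 (adjusted p = 0.806) without the deep library, so RNA level does not check the genotype labels. The 10 melanocyte markers summed to 16160 to 19440 CPM in Sirpa-WT, 12780 and 13220 in Sirpa-KO replicates 2 and 3 and 15800 in the deep library. Without the deep library, 3 of 9 tested (Dct, Pmel and Slc24a5) were called lower and 6 did not pass. Mean CPM went from 8828 in Sirpa-WT to 4719 in shallow Sirpa-KO for Dct, and from 6178 to 6021 for Tyrp1. Sox10 (log2 fold change 0.18) and Slc45a2 (0.064) were the 2 tested markers above 0. The part of the difference in these sums in the results was not tested. Of 12 macrophage markers, 9, among them Ptprc and Csf1r, had 0 counts in each shallow library, and the list summed to 4.15 to 29.9 CPM. Itgam, which made up most of that sum in each shallow library, had 3, 7 and 5 counts in Sirpa-WT. It had 5 and 9 counts in Sirpa-KO replicates 2 and 3, and 1 in the deep library. The 6 T cell, 6 fibroblast and 4 endothelial markers each summed to at most 13.6 CPM. Calls were made with and without the deep library, and single genes are described without it, with its CPM beside them.

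The start sites of the genes are shown first, because several members carry the same short letters in them. RefSeq promoters of 300 bases (GRCm38.p6, 250 bases before to 50 after a transcript start) were on hand for 31 of the 35 genes, and Asah1, Ctsb, Ctsh and Npc1 had no entry. The letters CACGTG, an E-box that reads the same on both strands, were in a promoter of 12 members (38.7%) and of 2187 of 27025 genes (8.09%). The 8-base CLEAR core TCACGTGA, which contains the E-box, was in 5 members (16.1%), namely Cln3, Ctsa, Ctsd, Gla and Mcoln1, and in 1.12% of all genes. The 10-base palindrome GTCACGTGAC was in Cln3 alone among the members (3.23%) and in 0.37% of all genes. The related TCATGTGA, searched on both strands, was in Gla, Grn, Ppt1 and Tpp1 (12.9%) and in 1.15% of all genes. Some genes had more than 1 promoter entry, and a match in any of them was counted. All genes here include those too low to be tested. Among 3472 tested genes with a promoter entry, 464 had CACGTG and 109 the core, and among 18 such members 6 and 3 did. A match describes letters and not binding.

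The promoters of Ctsd and Mcoln1 are printed because these are the members called lower in Sirpa-KO once the deep library was left out. Those of Ctsa, with a pair of cores, and Cln3, with the palindrome, are printed because they carry the same letters with no such difference or with almost no counts. Capitals mark CACGTG and, where present, its extension to the core or the palindrome. All are 5′ to 3′ on the strand of the gene (GRCm38.p6).
Ctsd, chr7:142387778-142388077, minus strand: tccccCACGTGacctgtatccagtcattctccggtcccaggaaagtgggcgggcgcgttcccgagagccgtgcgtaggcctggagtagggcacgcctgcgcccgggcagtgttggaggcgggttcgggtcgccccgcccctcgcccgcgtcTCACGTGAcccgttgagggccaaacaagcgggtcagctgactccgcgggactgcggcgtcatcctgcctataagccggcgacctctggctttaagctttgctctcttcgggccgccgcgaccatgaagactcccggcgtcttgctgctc
Mcoln1, chr8:3500269-3500568, plus strand: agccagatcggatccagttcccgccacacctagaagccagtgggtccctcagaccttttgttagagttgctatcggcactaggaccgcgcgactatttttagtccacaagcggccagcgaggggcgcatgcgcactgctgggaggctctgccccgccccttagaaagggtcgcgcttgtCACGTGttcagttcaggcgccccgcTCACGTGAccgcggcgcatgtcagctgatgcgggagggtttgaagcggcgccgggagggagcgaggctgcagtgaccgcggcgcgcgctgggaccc
Ctsa, chr2:164833523-164833822, plus strand: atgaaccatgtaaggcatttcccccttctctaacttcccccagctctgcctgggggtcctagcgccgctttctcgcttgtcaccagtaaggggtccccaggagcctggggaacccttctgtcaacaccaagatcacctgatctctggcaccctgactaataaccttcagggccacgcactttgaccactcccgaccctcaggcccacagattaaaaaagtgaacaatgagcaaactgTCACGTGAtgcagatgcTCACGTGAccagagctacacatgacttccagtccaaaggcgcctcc
Cln3, chr7:126583187-126583486, minus strand: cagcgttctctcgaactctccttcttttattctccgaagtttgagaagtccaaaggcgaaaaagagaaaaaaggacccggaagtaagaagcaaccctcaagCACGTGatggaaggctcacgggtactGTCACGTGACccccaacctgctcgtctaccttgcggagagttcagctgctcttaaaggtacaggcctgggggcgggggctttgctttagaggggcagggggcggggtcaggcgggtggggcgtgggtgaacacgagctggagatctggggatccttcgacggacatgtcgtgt
The core began 99 bases before the start site of the entry in Ctsd and 46 bases before it in Mcoln1. The counted genes began further upstream, at 142388038 for Ctsd and 3500457 for Mcoln1, so both cores lay within the counted gene. In Ctsa, 1 core began 13 bases before the start of this entry and the other lay just after it. In Cln3 the palindrome began 123 bases before the start of this entry. Ctsa and Cln3 each had another entry, at the 5′ end of the counted gene, with no CACGTG.

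Per length of exon, Ctsd, which encodes the aspartic protease cathepsin D, was the most abundant of the 35 genes in Sirpa-WT, at 532 ± 65.0 RPKM (CPM per kilobase of exon; SD, n = 3). The lysosomal cysteine protease gene Ctsl followed at 86.1 ± 11.9, and Lamp1, a major glycoprotein of the lysosomal membrane, at 69.2 ± 10.2 RPKM. Each Sirpa-WT library had more Ctsl than any had Lamp1 on this scale. Hexa, the alpha subunit of beta-hexosaminidase, stood at 40.7 ± 5.4 and Psap, the precursor of the saposin activators of sphingolipid breakdown, at 39.7 ± 6.5 RPKM, a difference below their spread. Npc2, a luminal cholesterol carrier, had 28.8 ± 1.8, Ctsb 27.6 ± 3.2 and Lamp2 26.4 ± 2.0 RPKM, again within their spread. At the low end, the sulfatases Arsa (2.46 ± 0.80), Ids (1.87 ± 1.39) and Sgsh (0.403 ± 0.353 RPKM) lay near the level of single counts.

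**Figure D1:**
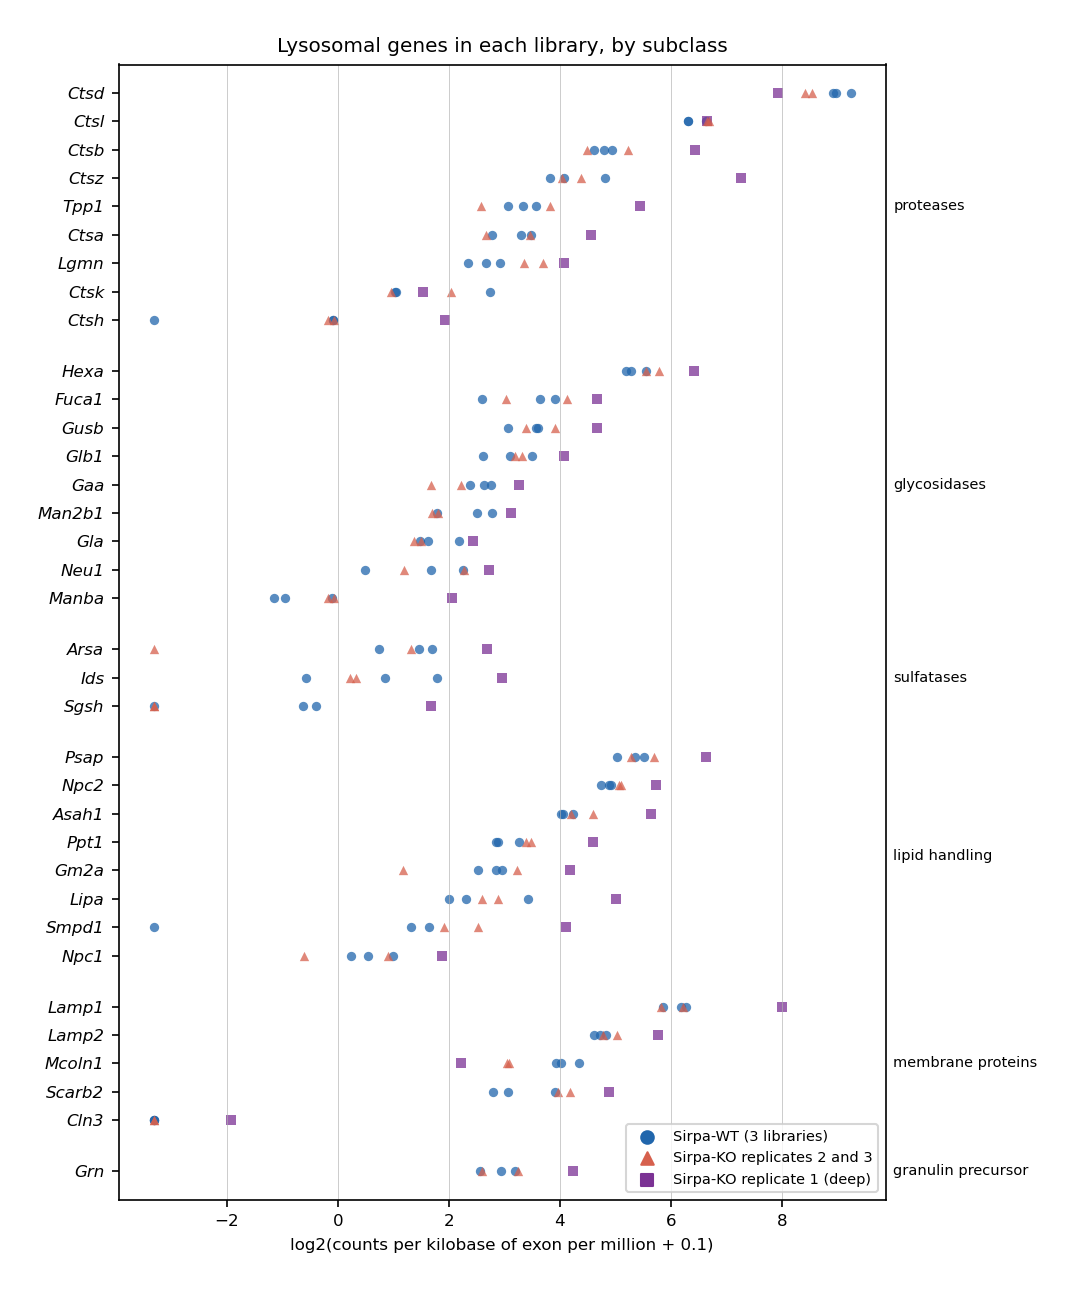
Level of each of the 35 genes in each library, on the x axis as log2 of RPKM plus 0.1, with genes on the y axis grouped by subclass. Circles are Sirpa-WT libraries, triangles Sirpa-KO replicates 2 and 3, squares the deep library. Ctsd lies highest in every shallow library, and the squares lie to the right of all other symbols for 31 genes and to the left for Ctsd and Mcoln1.

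The order differed in the deep library. Lamp1 (257 RPKM) and Ctsd (246) were nearly level there, followed by Ctsz (155), the gene of the carboxypeptidase cathepsin Z, and then Ctsl (100.4) and Psap (99.3). CPM in the deep library lay above each shallow library for 31 of the 35 members, within their range for Ctsk and Ctsl, and below each of them for Ctsd and Mcoln1. The 35 genes together took 2810 to 3129 CPM in Sirpa-WT, 2485 and 2720 in Sirpa-KO replicates 2 and 3, and 4594 in the deep library. Ctsd made up 43.7% to 48.8% of that sum in Sirpa-WT, 34.8% and 34.4% in Sirpa-KO replicates 2 and 3, and 13.5% in the deep library. Without Ctsd the sums were 1545 to 1601 CPM in Sirpa-WT and 1620 and 1784 in the shallow Sirpa-KO libraries, so that both of these lay above every Sirpa-WT library. The membrane proteins summed to 446 to 505 CPM in Sirpa-WT and to 546 and 449 in the shallow Sirpa-KO libraries, with 1179 in the deep library. Lipid-handling genes summed to 333 to 375 CPM against 360.1 and 465, with 955 in the deep library, and glycosidases to 233 to 275 against 263 and 291, with 551. In each of these 3 subclasses the shallow groups overlapped and the deep library lay above them all. These sums are scaled by library size alone, under which the median log2 fold change of all genes tested without the deep library was 0.15, against 0.013 with TMM scaling.

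**Figure D2:**
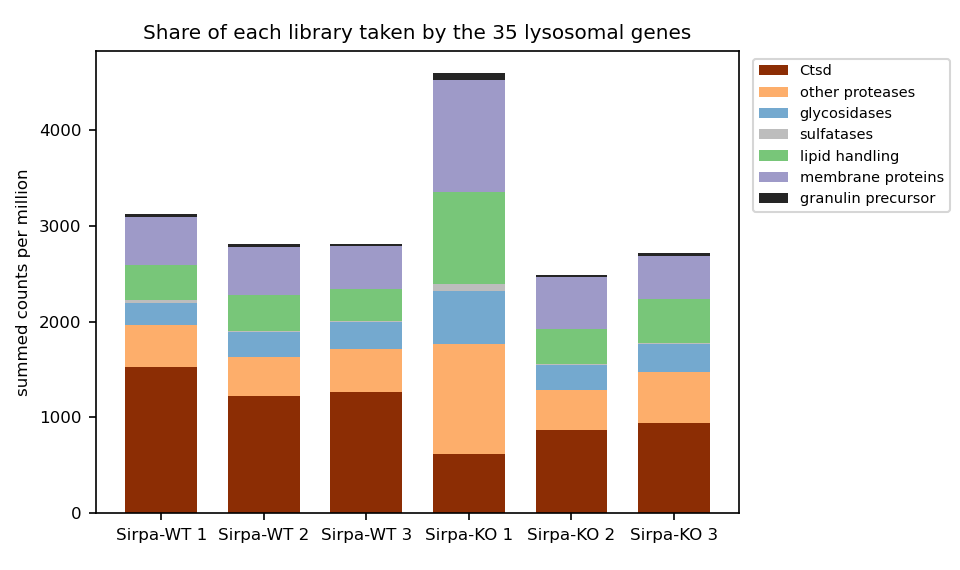
Summed CPM of the 35 genes in each library (bars from 0), split into Ctsd, the other proteases and the other subclasses. The Ctsd segment shrinks from 1227 to 1528 CPM in Sirpa-WT to 619 to 936 in Sirpa-KO, and the deep library has the tallest bar, at 4594 CPM.

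With all 6 libraries, edgeR's quasi-likelihood test called 0 of the 20 members that passed the count filter (0% of 5397 genes called, adjusted p under 0.05). At an unadjusted edgeR p under 0.05, 1 of the 20 members passed, Mcoln1, and 344 of all 5397 genes tested did. DESeq2 called 0 members and limma voom 2, Ctsd and Mcoln1, both lower. Voom also called many other genes in this fit, with their number given in the last section, and nothing is read from these 2 members. The median log2 fold change was 0.47 over the 20 members and 0.11 over all genes tested. That fit carries the deep library, in which most members, and the median protein-coding gene tested, were high. The biological coefficient of variation was 75.8% in that fit, against 7.25% without the deep library.

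Without the deep library, 2 of the 20 tested members were lower in Sirpa-KO, Ctsd and Mcoln1, and none was higher. Over all 5510 genes tested, 5.84% were called, 4.52% lower and 1.32% higher. The median log2 fold change of the 20 members was 0.033, with 10 above and 10 below 0, and that of all genes was 0.013. The other 15 members lay under the filter, which asked for about 28.9 CPM in at least 2 libraries. Gaa and Mcoln1 passed it through Sirpa-WT libraries alone, so that for these genes a lower value in Sirpa-KO was partly set by the filter.

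Ctsd (ENSMUSG00000007891, GRCm38 chromosome 7, 142371148 to 142388038, minus strand, 10 merged exons) was counted 629, 422 and 437 times across the Sirpa-WT libraries and 18499, 293 and 344 times across Sirpa-KO replicates 1 to 3. In CPM these are 1528, 1227 and 1265 against 619, 865 and 936. Every Sirpa-KO library, the deep one included, lay below every Sirpa-WT library. The Sirpa-WT mean was 1340 ± 164 CPM (SD, n = 3), and that of the shallow Sirpa-KO libraries 900.2 ± 50.1 CPM (SD, n = 2). The log2 fold change was -0.70 ± 0.11 (SE), with a 95% interval of -0.90 to -0.49 and an edgeR adjusted p of 2.45e-08. It was -0.88 ± 0.41 over 6 libraries (edgeR adjusted p = 0.574). Fewer cells expressing a gene and less RNA per cell cannot be told apart in bulk RNA. Of the exon bases of Ctsd, 6.47% overlap Ifitm10 on the same strand, where fragments could not be assigned to either gene.

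Mcoln1 encodes mucolipin 1, a cation channel of the lysosomal membrane that releases calcium. The gene (ENSMUSG00000004567, GRCm38 chromosome 8, 3500457 to 3515232, plus strand, with 11 merged exons) was counted 27, 18 and 17 times across the Sirpa-WT libraries and 441, 9 and 10 times across Sirpa-KO replicates 1 to 3. That is 65.6, 52.4 and 49.2 CPM against 14.8, 26.6 and 27.2, again with no overlap between the groups. The log2 fold change without the deep library was -1.17 ± 0.37 (SE; 95% interval -1.89 to -0.46, edgeR adjusted p = 0.028), and over 6 libraries -1.47 ± 0.42 (adjusted p = 0.574). Settings that ended the call included no count filter (adjusted p = 0.0605), limma voom (0.0754), scaling by library size alone (0.0594) and leaving out Sirpa-WT replicate 1 (0.122), Sirpa-KO replicate 2 (0.203) or Sirpa-KO replicate 3 (0.214). DESeq2 gave it no adjusted p.

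Each gene's CPM in the deep library was divided by its mean over the shallow ones, and the calls were read against this ratio. Over 4294 protein-coding genes tested, the median log2 ratio was 0.90, and 1359 (31.6%) lay more than 1 below it, here called low-ratio genes. Of the 20 tested members, Ctsd (-0.91) and Mcoln1 (-1.52) were low-ratio genes and the other 18 were not. Low-ratio genes had a median log2 fold change of -0.26 between shallow Sirpa-KO and Sirpa-WT libraries, and the other protein-coding genes 0.18. Of 143 protein-coding genes called lower, 131 were low-ratio genes. A log2 fold change below that of Ctsd was found in 10.4% of low-ratio genes, and below that of Mcoln1 in 1.62%. With the trend on this ratio removed from the shallow libraries, Ctsd was still called (-0.47 ± 0.10, SE, edgeR adjusted p = 0.000818) and Mcoln1 was not (-0.89 ± 0.37, adjusted p = 0.251). In that fit 1.98% of genes were called, and 16 of the 20 members had a log2 fold change below 0, with a median of -0.18. The median was -0.033 over low-ratio genes and 0.012 over the other protein-coding genes tested. The share of all genes below 0 was not counted. The deep library is itself Sirpa-KO, and its CPM was divided by a mean that includes the Sirpa-WT libraries. A difference between the genotypes therefore moves both the ratio and the fold change, and removing the trend can remove part of that difference. The fit cannot separate such a difference from the deep library's composition, whose part in the calls was not tested.

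**Figure D3:**
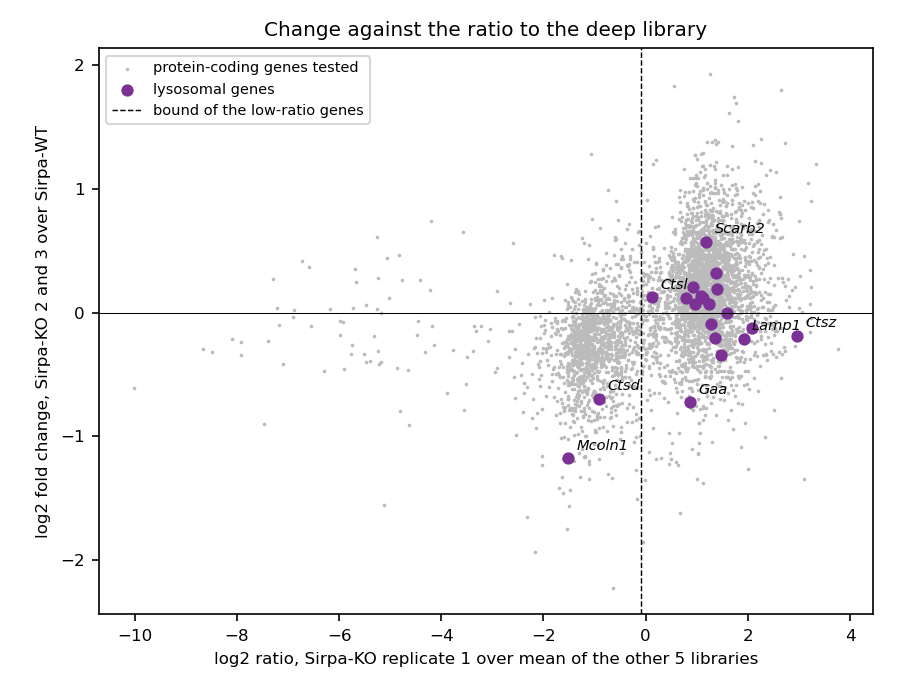
Log2 fold change without the deep library (y axis) against the log2 of CPM in the deep library over its mean in the other 5 (x axis), for 4294 protein-coding genes (grey) and the 20 lysosomal genes among them (purple). Ctsd and Mcoln1 lie left of the dashed bound at -0.098, and the other 18 lie right of it.

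The genes beside the called members were examined as well. Of the 10 tested protein-coding genes nearest to Ctsd (chromosome 7, 141447370 to 144582463), 4 were low-ratio genes, 7 had a log2 fold change below 0 and none passed edgeR's test. The most negative of them, Dhcr7, stood at -1.14 (edgeR adjusted p = 0.0531). Mcoln1 lies near the start of chromosome 8 and had 7 such neighbours (3393006 to 4251423). Of these, 6 were low-ratio genes, 6 had a log2 fold change below 0 and none passed. The most negative of these, Pnpla6, stood at -0.76 (edgeR adjusted p = 0.0966). Both neighbours were chosen after their values were seen.

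Among the proteases, Ctsd was the 1 called of 6 tested, with a median log2 fold change of -0.15. Ctsl had 155, 157 and 197 CPM in the Sirpa-WT libraries and 198, 204 and 198 CPM across Sirpa-KO replicates 1 to 3. The groups did not overlap, but the log2 fold change without the deep library was 0.13 (95% interval -0.24 to 0.50) and the gene did not pass. Of its sequence words of 25 bases, 7.3% recur in annotated pseudogenes, the 1 member above 5%. Ctsb, a cysteine protease gene, had 146, 131 and 116 CPM against 106 and 177, and 411 in the deep library. It stood at -0.003 (-0.41 to 0.41), with 16.2% of its exon bases overlapping Fdft1 on the opposite strand. Ctsa, the carboxypeptidase that also protects beta-galactosidase and neuraminidase, has a pair of CLEAR cores in the promoter entry printed above. It stood at -0.21 (-0.89 to 0.48), with 17.4% of its exon bases overlapping Neurl2 and Pltp. Tpp1, a tripeptidyl peptidase, stood at -0.12 and Ctsz at -0.19. Ctsz had 20.4 to 40.5 CPM in the shallow libraries of either group and 223 in the deep one.

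The other proteases were under the filter. Lgmn, which cleaves after asparagine, had 6, 6 and 4 counts in the Sirpa-WT libraries and 8 and 11 in Sirpa-KO replicates 2 and 3. Ctsk, the collagen-degrading cathepsin of osteoclasts, had 1 to 4 counts in each shallow library and Ctsh at most 1. In the deep library they had 124 and 383 counts, or 4.15 and 12.8 CPM.

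None of the 4 tested glycosidases passed, with a median log2 fold change of 0.13. Gaa, the acid glucosidase that clears glycogen, was the member with the largest change in this subclass. It had 24.3, 29.1 and 31.8 CPM in Sirpa-WT, 14.8 and 21.8 in Sirpa-KO replicates 2 and 3, and 45.5 in the deep library. The shallow groups did not overlap and the deep library lay on the other side of Sirpa-WT. The log2 fold change was -0.72, with a 95% interval of -1.74 to 0.29. Hexa had 68.0, 87.3 and 72.3 CPM in Sirpa-WT against 103 and 87.0, and 160 in the deep library, at 0.21 (-0.29 to 0.71). Gusb (0.12), the beta-glucuronidase gene, and Fuca1 (0.14), which removes fucose, were near 0. Gla, Glb1, Neu1, Man2b1 and Manba, which act on galactosides, sialic acids and mannosides, did not exceed 11 counts in any shallow library.

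The sulfatases, which act on sulfatides and glycosaminoglycans, could not be compared at this depth. Arsa had 4, 2 and 4 counts in the Sirpa-WT libraries and 3 and 0 in Sirpa-KO replicates 2 and 3, which for the library at 0 allows up to 8.16 CPM (3 counts, counting error only). Sgsh had at most 1 count and Ids at most 7 in each shallow library. The deep library held 700, 411 and 1170 counts of Arsa, Sgsh and Ids, or 23.4, 13.8 and 39.2 CPM. Exons of Arsa and Sgsh overlap other genes on the opposite strand over 18.8% and 21.6% of their bases, and the counting used no strand.

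None of the 5 tested lipid-handling genes passed, with a median log2 fold change of 0.12. Psap had 112, 125 and 89.7 CPM in Sirpa-WT against 106 and 141, and 272 in the deep library, at 0.071 (95% interval -0.36 to 0.51). Npc2 had 87.4, 96.0 and 98.4 CPM against 112 and 109, and 174 in the deep library. Its groups did not overlap, but its log2 fold change was 0.12 (-0.35 to 0.58). Ppt1, a thioesterase that removes palmitate from proteins, had 26.7, 34.9 and 26.1 CPM against 38.4 and 40.8, and 88.4 in the deep library, at 0.32 (-0.44 to 1.08). Asah1, acid ceramidase, had 55.9, 64.0 and 55.0 CPM against 62.0 and 81.6, and 170 in the deep library, and stood at 0.19 (-0.37 to 0.75).

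Gm2a, the activator protein for GM2 ganglioside breakdown, differed between the shallow Sirpa-KO libraries themselves. Its counts were 12, 8 and 11 in the Sirpa-WT libraries against 3 and 14, and 74.9 CPM in the deep library, at -0.34 (-1.27 to 0.58). Its log2 fold change was 0.29 without Sirpa-KO replicate 2 and -1.76 without Sirpa-KO replicate 3, so a single library set its direction. Lipa, Smpd1 and Npc1, which act on cholesteryl esters, sphingomyelin and cholesterol export, were under the filter, none exceeding 13 counts in a shallow library.

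Of the 4 tested membrane proteins, Mcoln1 was the 1 called. Lamp1 had 175, 163 and 130 CPM in Sirpa-WT against 168 and 128, and 579 in the deep library. The shallow groups overlapped and the log2 fold change was -0.21 (95% interval -0.61 to 0.19). Lamp2, the companion glycoprotein that also serves chaperone-mediated autophagy, had 233, 271 and 252 CPM against 313 and 261, and 521 in the deep library. It stood at 0.069 (-0.25 to 0.39). Scarb2, the receptor that carries glucocerebrosidase to lysosomes, had 31.6, 17.5 and 14.5 CPM against 38.4 and 32.6, and 62.5 in the deep library. Its groups did not overlap, at 0.57 (-0.31 to 1.46), and it did not pass.

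Cln3, a lysosomal membrane protein gene affected in juvenile Batten disease, had 0 counts in each of the 5 shallow libraries. A count of 0 allows up to 7.29 to 8.85 CPM there. In the deep library it had 28 counts, or 0.937 CPM. Its exons overlap Apobr, on the opposite strand, over 7.65% of their bases. Grn, the progranulin gene, whose product is cut into granulins in lysosomes, had 31.6, 26.2 and 20.3 CPM in Sirpa-WT against 20.7 and 32.6, and 65.3 in the deep library, at -0.089 (-1.001 to 0.82).

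**Figure D4:**
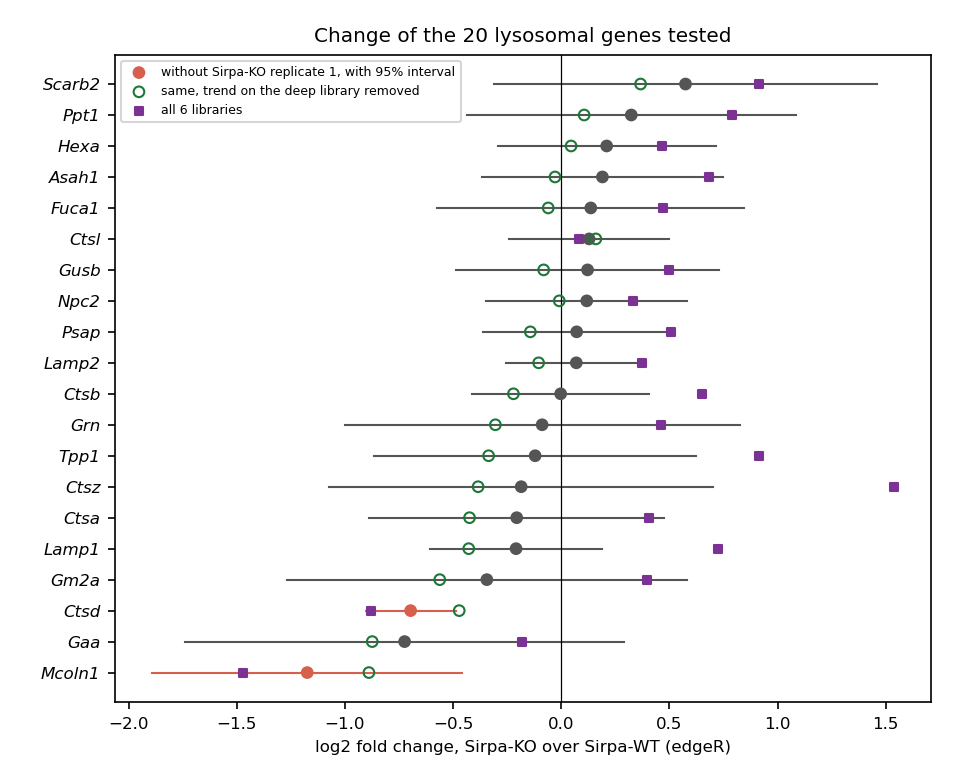
Log2 fold change of the 20 tested genes (x axis) in edgeR without the deep library (filled circles with 95% intervals, red where called), with the trend on the deep library's ratio removed (open circles) and over all 6 libraries (squares). Only the intervals of Ctsd and Mcoln1 exclude 0 without the deep library, and for most genes the square lies to the right of the circle.

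Non-overlap of CPM was a weak criterion at this depth. Of the 20 tested members, 7 did not overlap between the shallow groups (38.1% of all genes tested). Of these, 3 lay lower in Sirpa-KO (11.8%) and 4 higher (26.3%). The lower members were Ctsd, Mcoln1 and Gaa, and the higher ones Ctsl, Npc2, Ppt1 and Scarb2. CPM is scaled by library size alone, under which the median log2 fold change of all genes lay higher than with TMM, as given for the sums. The part of this shift in the shares lower and higher was not tested.

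The promoter letters were set beside the calls as a description. Of 6 tested members with CACGTG, Ctsd and Mcoln1 were called lower, and Ctsa, Ctsl, Gaa and Lamp1 were not called. Mcoln1 and Gaa were tested through their Sirpa-WT libraries alone, so the members' count carries the filter and nothing is read from it. Of all 464 tested genes with these letters, 3.66% were called lower, and their median log2 fold change was 0.022. Ctsd, Mcoln1 and Ctsa were the tested members with the core. Over all 109 tested genes with the core, 3 (2.75%) were called lower, against 3.37% lower among 3472 tested genes that had a promoter entry. Of 33 tested genes with TCATGTGA, 4 (12.1%) were called lower, with a median log2 fold change of -0.14. The tested members with those letters, Ppt1, Tpp1 and Grn, were not among the 4.

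Related genes were described from lists of lysosomal biology. Of the 4 MiT/TFE regulators, 1 was tested, Mitf, which fell from 624 ± 27.1 CPM (SD, n = 3) to 400.3 ± 39.1 CPM (SD, n = 2), with 449 CPM in the deep library. Its log2 fold change was -0.76 ± 0.13 (SE, edgeR adjusted p = 2.42e-06) and -0.66 with the trend removed, still called. Mitf was itself a low-ratio gene, with a log2 ratio of -0.25 against the bound of -0.098. Of 9 genes of mannose 6-phosphate sorting, 5 were tested and none passed. The most abundant per length of exon, M6pr, the cation-dependent receptor, stood at 0.14. Of 16 genes of mTORC1 at the lysosome, 3 were tested and none passed, with Lamtor1, an anchor of the Ragulator complex, at -0.48.

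Of 19 autophagy genes, 8 were tested and 1 fell, Map1lc3b, which encodes the autophagosome protein LC3B (-0.50 ± 0.14, SE, edgeR adjusted p = 0.0135). It was not called with the trend removed (-0.28). Of 43 other lysosomal proteins, 13 were tested. Hgsnat (-0.57), an acetyltransferase of heparan sulfate breakdown, and Scpep1 (-0.41), a serine carboxypeptidase, fell, and Laptm4b (1.02), a membrane protein, rose. None of these 3 was called with the trend removed, at -0.29, -0.14 and 0.81 respectively. Cd63, a tetraspanin and the most abundant gene of that list per length of exon in Sirpa-WT (503 RPKM), stood at -0.052. Over all 6 libraries no gene of these lists passed edgeR's test.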

How the data were processed

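Poly(A) RNA of 3 Sirpa-WT and 3 Sirpa-KO libraries was analysed from the deposited fragment counts per gene. Per the file headers, the authors counted with featureCounts 1.5.1 over Ensembl release 75 exons, with no strand option. STAR 2.6.0 is named in the submitters' processing notes. The members and related lists were chosen by name, with earlier results of these data known. The choice to give each result with and without the deep library was also made with earlier results known.

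Genes were filtered with filterByExpr (minimum count 10), scaled by TMM and tested with edgeR 4.0.16 (quasi-likelihood, Benjamini-Hochberg threshold 0.05) over all genes, with all 6 libraries and without the deep one. Alternatives were RLE, upper-quartile and library-size scaling, other filters, DESeq2 1.42.0, limma 3.58.1 voom, a replicate block, each library left out, and removal of a lowess trend (span 0.3) on the deep library's ratio. Gene models and symbols came from GENCODE M21, which matched 37607 of 39179 identifiers, and promoters from RefSeq. Genes were named in full if called, not overlapping between groups, or of largest change or level in a subclass, and from related lists if called or most abundant. One result of a related list is not reported here. Depth limits precision: 3 counts, the limit that 0 counts allow, equal 7.29 to 8.85 CPM in shallow libraries (counting error only).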

Additional observations from a re-analysis of the deposited data

How the results depend on the processing

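Without the deep library, 2 members were called. The number was 1 with library-size scaling, no filter, DESeq2, limma voom, the replicate block and the trend removed, and 1 to 2 with single libraries left out (1 without Sirpa-WT replicate 1 or Sirpa-KO replicate 2 or 3). Ctsd was called under all 16 alternatives run, at -0.77 to -0.47. Mcoln1 was called under 7 of the 15 that gave it an adjusted p, at -1.25 to -0.89 (adjusted p 0.0210 to 0.251). Over all genes the number called was 322 (73 higher, 249 lower). It was 127 with DESeq2, 198 over protein-coding genes only, 109 with the trend removed, and 125 to 351 with single libraries left out (214 without Sirpa-WT replicate 2, and 125 or 127 without Sirpa-KO replicate 2 or 3). Library-size scaling gave 279 higher and 128 lower. With all 6 libraries, 0 members and 0 genes were called by edgeR. DESeq2 called 1 gene, and limma voom 2 members and 1283 genes. With single libraries left out the ranges were 0 to 2 members and 0 to 322 genes, the higher values being those without the deep library. Where 1 Sirpa-KO library remained, it was assumed to vary like the others. The causes of these differences were not tested beyond what each alternative changes.

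The replicate numbers did not pair the libraries: deviations of same-numbered libraries correlated at 0.0236, -0.0415 and 0.0584. With the replicate block and without the deep library, 316 genes and 1 member were called, and Mcoln1 stood at -1.03 (edgeR adjusted p = 0.125). At these depths 15 of the 35 members had too few counts to be tested.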
